A study of Homo sapiens with 12 samples.

Results

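The replication-dependent histone genes are the members of the H1, H2A, H2B, H3 and H4 families whose symbols in the count files begin with HIST1, HIST2, HIST3 or HIST4. The count files list 56832 gene symbols, and 85 of them match these family names. No matching symbol ended in P and digits, the usual form of a pseudogene. The 62 symbols with 10 or more counts in total over the 12 libraries were kept, and the other 23 were left out, 16 of them with no count at all. The 62 genes comprise 6 of the H1 class, 15 of H2A, 19 of H2B, 10 of H3 and 12 of H4. In GENCODE 29 on GRCh38, 50 lie on chromosome 6, 11 on chromosome 1 and 1 on chromosome 12. GENCODE annotates 58 as protein-coding and 4 as pseudogenes (HIST1H1PS1, HIST1H2APS4, HIST2H2BC and HIST2H2BD).

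Replication-dependent histone genes supply the histones that package newly copied DNA, and their mRNAs are made mainly in S phase. H2A, H2B, H3 and H4 form the core of the nucleosome, and the linker histone H1 binds the DNA between nucleosomes. Most of these mRNAs end in a conserved stem-loop in place of a poly(A) tail. The stem-loop binding protein SLBP and the U7 small nuclear RNP act at this end, and NPAT acts at the promoters of the gene clusters.

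RNA was measured by sequencing in SW1736, an established line from a human anaplastic thyroid cancer. The cells carried the empty vector pCDH-EV (EV cells) or the vector pCDH-TRB (TRB cells), which encodes thyroid hormone receptor beta, the nuclear receptor for the hormone T3. All cells were kept for 24 h in medium with charcoal-stripped serum and then given NaOH vehicle or 10 nM T3 for 24 h, which makes 4 groups of 3 libraries. The labels do not say whether a vector population is 1 clone, whether the libraries of a group came from separate cultures, or whether RNA was selected for poly(A), so p-values measure the spread between these libraries, which may be technical.

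Counts within genes ranged from 3819306 to 13086717 per library. THRB, the gene of the receptor, stood between 12.3 and 18.3 CPM (counts scaled to a common library total) in the 6 EV libraries. In TRB cells it stood at 80.2, 79.8 and 80.4 CPM with vehicle and at 321.9, 190.3 and 296.7 CPM with T3. The TRB groups thus differed in receptor mRNA as well as in hormone, and the part of this difference in the results was not tested. KLF9, a known T3 target, stood between 7.93 and 14.6 CPM with vehicle and between 104 and 257 CPM with T3. Of 7 thyroid markers 3 reached a mean of 1 CPM, while FOXE1 and TSHR had no count in any library. Of 6 markers of other cell types only CD14 reached 1 CPM, and CD3E and CDH5 had no count. The summed level of these 6 was 0.407 to 2.28 CPM in the other 3 groups and 9.53, 0.18 and 9.87 CPM in TRB cells with T3. Nearly all of the latter was CD14, at 9.23, 0.18 and 9.74 CPM, while PTPRC stood at 0.15, 0 and 0.12 CPM. The part of these markers in the results was not tested.

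The second T3-treated TRB library stood apart from the other 11. Histone genes took 0.0398% of its counts within genes (95% exact binomial interval 0.0384 to 0.0413, which covers counting error only), against 0.308% and 0.296% in the other T3-treated TRB libraries. In 55 of the 62 genes it held the lowest CPM of the 12 libraries, and 11 of the 62 had no count in it. Across 12130 tested genes its difference from the other 2 libraries of its group followed GC content (Spearman's rho of -0.88 across genes, which are not independent replicates). Among 54 tested histone genes alone the same correlation was -0.38. GC content was that of the longest GENCODE transcript of a gene. Such models run from the coding sequence alone (HIST1H3B, 411 bases, 59.1%) to long ones (HIST1H2BH, 2060 bases, 41.6%). The value of a histone gene can thus differ from that of the mRNA counted. Tested genes had a median GC content of 48.3% and tested histone genes one of 57.3%. The median log2 difference of the second library from the other 2 was -3.13 for the tested histone genes and -0.06 for all genes. How far GC content accounts for the low histone level was not tested. The biological coefficient of variation was 0.33 with this library and 0.13 without it. Counts over all tested histone genes are therefore given from 12 libraries and from the 11 without it, which leave 2 T3-treated TRB libraries. Values of classes, gene lists and single genes are from the 11 unless 12 are named.

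Reads that align to several places were not assigned to genes, and close histone copies lose such reads. By 75-base windows of the GENCODE transcripts, 45 of the 62 genes have at least 90% of their sequence unique, and 12 have under 50%. Windows shared with an overlapping gene on either strand also counted as not unique, so the 12 mix close copies with overlapping genes. HIST1H2AK and HIST1H4K have no unique sequence by this measure, so their values are uncertain. The sequence of HIST1H2AK lies wholly within HIST1H2BN on the opposite strand. HIST1H2AM and HIST1H1PS1 share 88.0% and 92.9% of their exons with overlapping genes. The strand setting of the counting is not given in the sources used here.

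The stem-loop is shown first because it is the feature that defines these mRNAs. The histone stem-loop motif, a 6-base arm that starts with a pair of G and ends in T, a loop of 3 T and any base, and a 6-base arm that starts with A and ends in a pair of C, was searched in the sense strand of the GENCODE transcripts. It was present in 28 of the 62 genes (45.2%) and in 517 of 19940 protein-coding genes (2.59%). Of the 34 genes without a match, 26 have annotated models that all end at the stop codon, before a stem-loop could be seen. The most frequent form occurred in 14 genes of the H2A, H2B and H3 classes, among them HIST2H2BE, HIST1H2AC and HIST1H3H. A second form occurred in 5 genes, all of the H4 class: HIST1H4B, HIST1H4E, HIST1H4H, HIST1H4J and HIST4H4. Another form occurred in HIST1H2BC, HIST1H2BD, HIST1H2BF and HIST1H3G. The 4 loop bases are in capitals.
H2A, H2B and H3 form: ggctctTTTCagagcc
H4 form: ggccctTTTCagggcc
HIST1H2BC and HIST1H3G form: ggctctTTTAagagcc

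Promoter motifs differed between some of the classes. The RefSeq table (GRCh38.p14) holds promoter windows of 300 bases for 53 of the 62 genes and for 27305 genes in all. On either strand, the octamer ATTTGCAT was present in 9 of 13 H2A genes and 13 of 17 H2B genes, in none of the 23 H1, H3 and H4 genes, and in 2.19% of all genes. CCAAT was present in all 43 H1, H2A, H2B and H3 genes, in 2 of 10 H4 genes and in 39.7% of all genes. TATAAA was present in 35 of the 53 genes and in 14.0% of all genes. Matches can overlap, as TATAAA on the 2 strands does in HIST1H2BJ, and a match describes letters, not a bound site. The windows below are those of HIST1H1C (an H1 gene that fell with T3 in TRB cells, chr6:26056421-26056720, minus strand), HIST1H2BJ (an H2B gene that fell, chr6:27132746-27133045, minus strand), HIST1H4E (an H4 gene, chr6:26204360-26204659, plus strand) and HIST1H3E (the gene that moved the other way, chr6:26224885-26225184, plus strand). Capitals mark matches to these 3 on either strand. The window of HIST1H2BJ shares 253 bases with that of HIST1H2AG, its divergent H2A neighbour, so a match in the shared bases counts for both genes. The window of HIST1H4E holds none of the 3, and that of HIST1H3E holds CCAAT 4 times.
HIST1H1C: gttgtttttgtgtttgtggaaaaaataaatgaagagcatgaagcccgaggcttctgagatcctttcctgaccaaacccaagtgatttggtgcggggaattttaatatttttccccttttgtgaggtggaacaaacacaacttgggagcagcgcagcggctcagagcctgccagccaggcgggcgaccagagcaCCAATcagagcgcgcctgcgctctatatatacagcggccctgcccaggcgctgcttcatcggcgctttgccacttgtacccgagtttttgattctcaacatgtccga
HIST1H2BJ: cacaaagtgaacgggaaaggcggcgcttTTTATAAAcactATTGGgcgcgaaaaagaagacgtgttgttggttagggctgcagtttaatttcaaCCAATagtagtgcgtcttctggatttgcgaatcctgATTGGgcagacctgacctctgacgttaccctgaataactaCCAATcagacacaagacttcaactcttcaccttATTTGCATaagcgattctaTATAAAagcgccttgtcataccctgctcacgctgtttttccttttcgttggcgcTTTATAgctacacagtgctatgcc
HIST1H4E: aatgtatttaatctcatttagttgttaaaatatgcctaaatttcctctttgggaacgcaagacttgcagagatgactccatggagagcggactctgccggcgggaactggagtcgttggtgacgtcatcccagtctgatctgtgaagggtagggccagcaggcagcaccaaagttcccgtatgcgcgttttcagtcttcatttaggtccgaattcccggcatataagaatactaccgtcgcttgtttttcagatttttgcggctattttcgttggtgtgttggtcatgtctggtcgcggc
HIST1H3E: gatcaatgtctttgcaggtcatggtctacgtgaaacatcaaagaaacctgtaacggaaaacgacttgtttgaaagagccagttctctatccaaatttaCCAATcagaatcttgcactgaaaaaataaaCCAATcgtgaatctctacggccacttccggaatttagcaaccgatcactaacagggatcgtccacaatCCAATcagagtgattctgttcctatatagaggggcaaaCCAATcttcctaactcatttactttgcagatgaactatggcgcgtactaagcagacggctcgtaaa

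The means of the 4 groups ordered the same way for the sum of the 62 genes and for 4 of the 5 classes. The summed expression was 5213, 4245 and 4883 CPM in EV cells with vehicle and 5409, 4460 and 6674 CPM in EV cells with T3. In TRB cells it was 6540.2, 5115 and 5992 CPM with vehicle and 3024, 507 and 2889 CPM with T3. The T3-treated TRB libraries were the lowest 3 of the 12. From lowest to highest, the group means were 2140.1 ± 1416 (SD, n = 3) for TRB with T3, 4780.3 ± 492 for EV with vehicle, 5514 ± 1111 for EV with T3 and 5883 ± 719 for TRB with vehicle. The libraries of the last 3 groups overlap. Without the second library the mean of TRB with T3 was 2956 CPM, 0.503 times that of TRB with vehicle. CPM is a share of the library, so fewer cells in S phase and less histone mRNA per cell cannot be told apart.

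**Figure D1:**
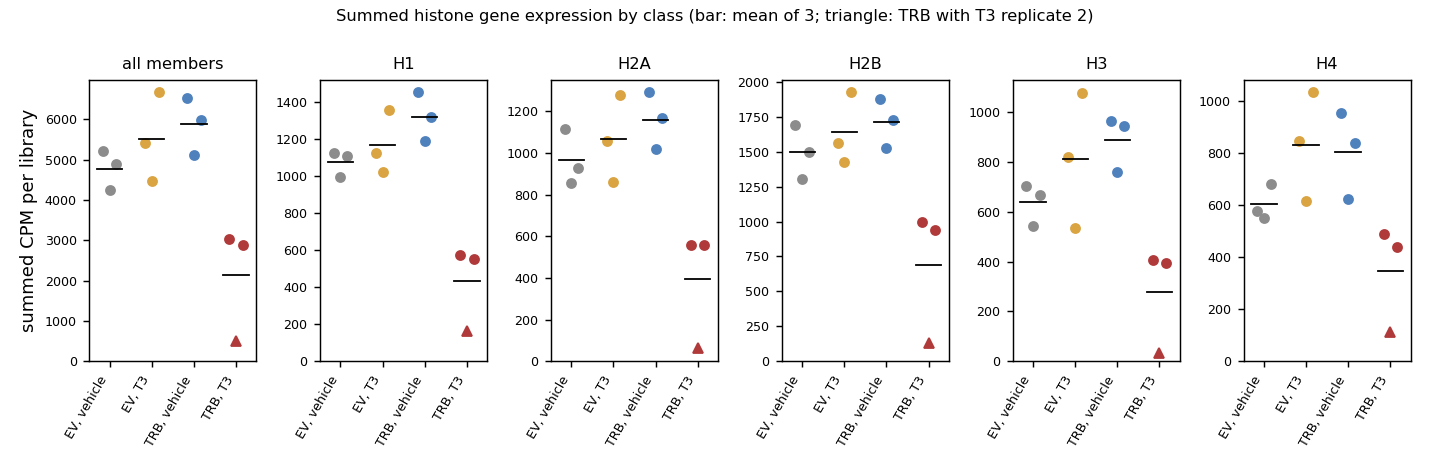
Summed CPM (vertical axes, from 0) of all 62 histone genes and of each class in the 12 libraries, 3 points per group with a bar at their mean; the triangle is the second T3-treated TRB library. The T3-treated TRB libraries are the lowest 3 of the 12 in every panel.

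The first comparison asks what T3 did in cells with the receptor. Most histone genes stood lower with T3 in TRB cells with or without the second T3-treated library. Without that library their sum was about 2-fold lower. With 11 libraries, 44 of the 55 tested genes were called lower and 1 higher (edgeR quasi-likelihood test, Benjamini-Hochberg adjusted p of 0.05 or less). Of all 14825 tested genes, 15.2% were called lower and 18.1% higher. In counts of tested genes, fell and rose mean such a call. With all 12 libraries, 7 of 54 were called lower and none higher, where 6.20% of 14431 genes were called lower and 8.54% higher. The 7 were HIST1H1B, HIST1H1C, HIST1H1D, HIST1H2BB, HIST1H4C, HIST1H4H and HIST2H2AC, and all 7 were among the 44. Called or not, 53 of the 54 had a log2 change below 0 with 12 libraries, as 7173 of the 14431 genes did. In 50 of the 54 all T3-treated TRB libraries lay below the 3 vehicle libraries, as in 3395 of the 14431 genes. By class, 12 libraries gave 3 of 4 H1 genes, 1 of 12 H2A, 1 of 18 H2B, 2 of 10 H4 and 0 of 10 H3 genes in edgeR, with 6 of the H3 genes at an unadjusted p under 0.05. The median log2 fold change of the tested histone genes was -0.94 with 11 libraries and -1.42 with 12, against -0.01 and 0.01 for all tested genes. In 51 of the 55 genes both remaining T3-treated libraries lay below the 3 vehicle libraries, where 36.0% of all genes did so. In 42 of the 55 they lay below all 9 libraries of the other groups, as 15.4% of all genes did. When the 2 TRB groups were fitted without the EV libraries, 50 of 55 genes were called lower and 1 higher without the second library (chosen after seeing the data), where 24.1% of all genes were called lower. With it none of 54 was called in edgeR, 10 of these at an unadjusted p under 0.05, where 4.52% of all genes were called.

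All 4 tested H1 genes fell with T3 in TRB cells with 11 libraries and 3 of 4 with 12, where HIST1H1E did not pass (edgeR adjusted p = 0.060). HIST1H1C (now H1-2), which took the most counts of the 62, stood at 560.0, 434 and 503 CPM with vehicle and at 179.6, 61 and 168 CPM with T3. In EV cells it stood at 369, 370.2 and 413 CPM with vehicle and 387, 318 and 503 CPM with T3. The TRB libraries with T3 thus lay below all others, and its log2 fold change was -1.47 (SE 0.17, edgeR adjusted p = 2.3e-05) with 11 libraries and -1.87 (SE 0.35, adjusted p = 0.0047) with 12. HIST1H1B (H1-5) stood at 363, 306 and 335 CPM with vehicle and at 143, 37.1 and 134 CPM with T3 in TRB cells, a log2 change of -1.23 with 11 libraries (SE 0.12, edgeR adjusted p = 6.57e-06). HIST1H1D (H1-3) went from 105, 74.6 and 87.5 CPM to 38.4, 16.9 and 35.5 CPM, a log2 change of -1.22 with 11 libraries (SE 0.14). HIST1H1E (H1-4) had the smallest change of the class, from 425, 374 and 391 CPM to 214, 50.4 and 215 CPM, at -0.84 (SE 0.14). These 4 genes encode linker histones of dividing somatic cells. The other 2, the testis gene HIST1H1T and the pseudogene HIST1H1PS1, had too few counts to test.

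Among the H2A genes 10 of 13 fell with 11 libraries, and the class median was -1.07. HIST1H2AI, with 39.9% of its sequence unique, stood at 124, 93.7 and 103 CPM with vehicle and at 39.9, 4.14 and 40.2 CPM with T3 in TRB cells, a log2 change of -1.37 (SE 0.22). HIST1H2AG, of the divergent pair shown above, went from 195, 152 and 157 CPM to 76.0, 4.68 and 73.2 CPM, at -1.12 (SE 0.16). The 2 T3 libraries other than the second lay near each other and below every vehicle library in both genes. HIST2H2AC, called with 12 libraries as well, went from 200.1, 156 and 179 CPM to 84.1, 20.1 and 88.4 CPM. HIST1H2AE and HIST1H2AC, also among the 12 genes with the most counts, changed by -1.12 and -1.07. HIST1H2AJ, HIST1H2AM and HIST2H2AB did not pass the test with 11 libraries.

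Of the H2B genes 16 of 18 fell with 11 libraries, with a class median of -0.74. HIST1H2BJ, the partner of HIST1H2AG, stood at 128, 84.9 and 106 CPM with vehicle and at 37.7, 1.98 and 37.8 CPM with T3 in TRB cells. Its log2 change was -1.44 (SE 0.20, edgeR adjusted p = 0.00014), the most negative of the class. HIST2H2BE, one of the histone genes known to give polyadenylated transcripts in differentiated cells, went from 228, 217 and 227 CPM to 129, 9.89 and 121 CPM, at -0.79 (SE 0.16). HIST1H2BD went from 235, 170 and 195 CPM to 122, 30.6 and 107 CPM, at -0.75 (SE 0.18). HIST1H2BC had one of the smallest changes among the genes that fell, at -0.52 (SE 0.13), from 191, 169 and 174 CPM to 117, 12.1 and 123 CPM. Its T3 libraries still lay below all vehicle libraries. HIST1H2BI and HIST2H2BC did not pass the test. The 7 listed genes with known polyadenylated transcripts fell in 7 of 7 cases with 11 libraries, with a median of -0.95, against -0.94 for all 55 tested histone genes.

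Of the 10 H3 genes 8 fell and 1 rose with 11 libraries. HIST2H3D stood at 46.8, 27.1 and 40.8 CPM with vehicle and at 12.6, 0 and 13.4 CPM with T3 in TRB cells, a log2 change of -1.51 (SE 0.50, edgeR adjusted p = 0.036). Only 29.7% of its sequence is unique. HIST1H3J went from 71.6, 59.5 and 68.5 CPM to 23.5, 0.54 and 21.6 CPM, also at -1.51 (SE 0.25). HIST1H3G went from 144, 106 and 129.7 CPM to 46.0, 4.32 and 42.8 CPM, at -1.46 (SE 0.25). HIST1H3B, the H3 gene with the most counts, changed by -1.15 (SE 0.25), from 227, 175 and 222 CPM to 92.8, 8.10 and 88.2 CPM. All 4 had T3 libraries below every vehicle library of the same cells. HIST1H3A did not pass the test.

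HIST1H3E was the only tested histone gene higher with T3 in TRB cells. It stood at 9.25, 10.5 and 9.06 CPM with vehicle and at 14.7, 19.1 and 13.5 CPM with T3, so the 2 groups did not overlap, and the second T3 library was the highest and not the lowest. In EV cells it stood at 14.99, 10.8 and 9.47 CPM with vehicle and 10.8, 15.5 and 10.6 CPM with T3, which overlapped each other. EV with vehicle overlapped both TRB groups, and EV with T3 overlapped TRB with T3 and lay above TRB with vehicle. Its log2 change in TRB cells was 0.60 (SE 0.21, edgeR adjusted p = 0.043) with 11 libraries and 0.71 (SE 0.24, adjusted p = 0.075) with 12. It was past the threshold in 6 of 27 alternative settings, in which the change ranged from 0.34 to 0.81. Its difference between the T3 responses of TRB and EV cells did not pass the test, at 0.45 with 11 libraries (edgeR adjusted p = 0.32). RefSeq gives this gene a second, upstream start window (chr6:26223928-26224227, plus strand).

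Of the 10 tested H4 genes 6 fell with 11 libraries, with a class median of -0.80. HIST1H4E, the H4 gene with the most counts, stood at 221, 183 and 216 CPM with vehicle and at 144, 23.9 and 131 CPM with T3 in TRB cells, a log2 change of -0.54 (SE 0.13). HIST1H4C went from 191, 88.8 and 129 CPM to 65.3, 31.1 and 57.2 CPM, at -1.10 (SE 0.32). HIST1H4H, called with 12 libraries as well, went from 98.1, 70.6 and 95.9 CPM to 43.8, 21.0 and 34.6 CPM, at -1.11 (SE 0.23). In each of the 3 the T3 libraries lay below the vehicle libraries. HIST1H4A, HIST1H4D, HIST1H4J and HIST1H4L did not pass the test, with log2 changes from -0.74 to -0.21. By class sums without the second library, TRB with T3 stood at 0.427 times TRB with vehicle for H1, 0.483 for H2A, 0.565 for H2B, 0.451 for H3 and 0.578 for H4. The differences among classes were not tested.

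**Figure D2:**
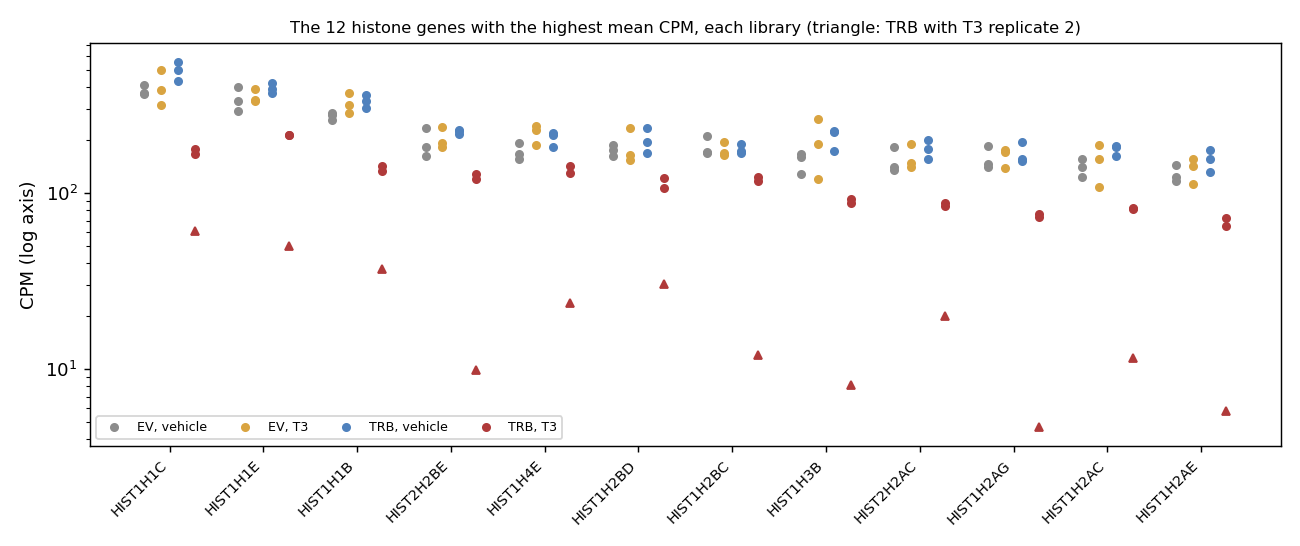
CPM on a log axis of the 12 histone genes with the highest mean CPM, 3 points per group in each gene, with the second T3-treated TRB library as a triangle. In each of the 12 genes the T3-treated TRB libraries lie below the TRB libraries with vehicle, and the triangle is the lowest point.

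The genes that fell came from all 4 named clusters. By sums without the second library, the ratio of TRB with T3 to TRB with vehicle was 0.497 for the 50 HIST1 genes, 0.544 for the 9 HIST2 genes, 0.536 for HIST3H2A with HIST3H2BB and 0.531 for HIST4H4. HIST4H4, the 1 gene on chromosome 12, fell from 115, 70.1 and 101 CPM to 51.7, 4.86 and 49.6 CPM (log2 change of -0.86, SE 0.26). Of genes with at least 90% unique sequence 35 of 42 fell, with a median of -0.91, and of those with under 50% 5 of 8 fell, with a median of -0.99. Of genes with the stem-loop letters 22 of 24 fell (median -0.89), and of those without 22 of 31 fell (median -0.95).

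The second comparison is T3 in EV cells. No histone gene passed the test with 11 or with 12 libraries in edgeR, and none did in DESeq2. In edgeR 7.33% and 0.229% of all genes did so with 11 and 12 libraries, and in DESeq2 1.05% did. At an unadjusted p under 0.05 there were 9 of 55 genes with 11 libraries, all higher, and 0 of 54 with 12, with 0 in DESeq2. Of all genes 28.2% and 6.10% had such a p in edgeR with 11 and 12 libraries, and 6.39% in DESeq2. Log2 changes were above 0 in 52 of 55 genes, with a median of 0.22 against 0.01 for all genes. The 9 included 5 H4 genes, among them HIST1H4L at 0.65 (SE 0.19, edgeR adjusted p = 0.058) and HIST1H4D at 0.51 (SE 0.15, adjusted p = 0.060). HIST1H4E stood at 167, 157 and 194 CPM with vehicle and 229.5, 188 and 239.9 CPM with T3, and these groups overlapped. In 4 of 55 genes, HIST1H4D and HIST1H4L among them, the T3-treated EV libraries lay above those with vehicle, and in 1 below. Across the 14825 tested genes 1623 lay above and 2312 below. The third T3-treated EV library held the highest sum of the 12 for all histone genes. That library also had the largest share of alignments to several places, 92.0% of everything in its file.

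**Figure D3:**
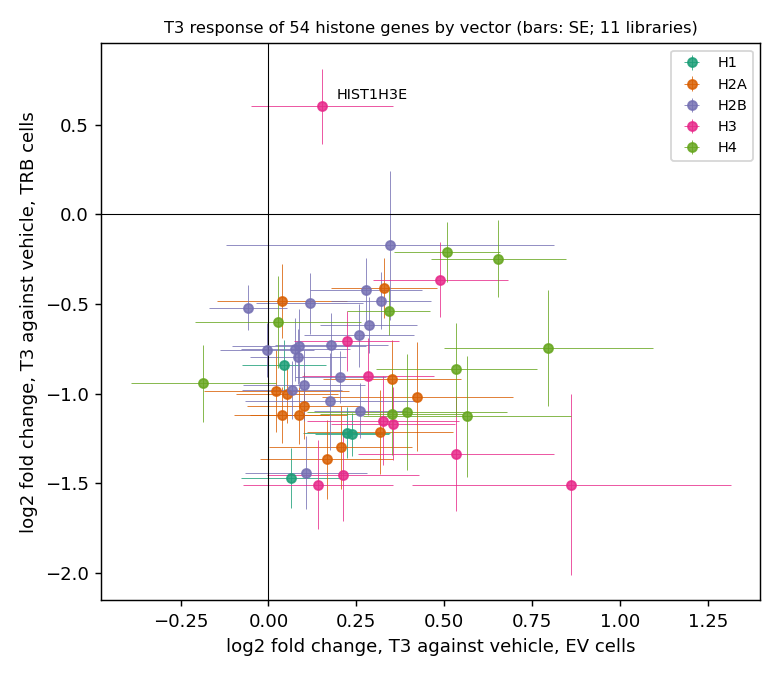
Log2 fold change of T3 against vehicle in EV cells (horizontal axis) and TRB cells (vertical axis) for 54 tested histone genes with 11 libraries, coloured by class, with bars of 1 SE; HIST1H2AM, with 3 counts or fewer in every library of a group, is not drawn. Most points lie right of 0 and below 0, and HIST1H3E alone lies above 0 on the vertical axis.

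The third comparison tests the difference between these T3 responses, the interaction of vector and T3. With 11 libraries, 51 of 55 genes had a lower level with T3 in TRB cells and a higher one in EV cells, 3 were lower in both and HIST1H3E was higher in both. The T3 response was more negative in TRB cells for 43 of 55 genes by edgeR with 11 libraries, where 6.68% of all genes were, and for 1 of 54 with 12, where 0.825% were. The 1 gene was HIST1H1D, at -1.78 (SE 0.38, edgeR adjusted p = 0.038). Medians were -1.11 with 11 libraries and -1.64 with 12. All 4 tested H1 genes, 11 of 13 H2A, 13 of 18 H2B, 8 of 10 H3 and 7 of 10 H4 genes were among the 43. Among these 43 the most negative were HIST2H3D at -2.37 (SE 0.68), HIST1H3H at -1.87 (SE 0.42), HIST1H4B at -1.69 (SE 0.45), HIST1H3G at -1.67 (SE 0.33), HIST1H3J at -1.65 (SE 0.32) and HIST1H2BJ at -1.55 (SE 0.26). HIST1H2AM, with 3 counts or fewer in every library of a group, had a lower fitted value and did not pass (edgeR adjusted p = 0.080). HIST1H3H stood at 69.7, 65.7 and 79.7 CPM in EV cells with vehicle and at 111, 50.9 and 155 CPM with T3. In TRB cells it went from 131, 102 and 132 CPM to 47.0, 1.26 and 46.3 CPM. Its EV groups overlapped and its TRB groups did not.

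The fourth comparison is TRB against EV cells with vehicle, without added hormone. No histone gene passed the test by edgeR with 11 or 12 libraries (0.0742% and 0.0208% of all genes did) or by DESeq2 (0.0263% did). At an unadjusted p under 0.05 there were 19 of 55 with 11 libraries, 0 of 54 with 12 and 1 in DESeq2. Of all genes 12.4% and 1.48% had such a p in edgeR with 11 and 12 libraries, and 0.894% in DESeq2. Log2 changes were above 0 in 50 of 55 genes, with a median of 0.31 against -0.0041 for all genes. In 17 of 54 genes the 3 TRB libraries lay above the 3 EV libraries and in none below, where 15.9% and 20.5% of all genes did so. Of the 17, 7 were of the 10 H3 genes. HIST1H3G stood at 93.0, 76.8 and 92.5 CPM in EV cells and at 144, 106 and 129.7 CPM in TRB cells, a log2 change of 0.55 (SE 0.21, edgeR adjusted p = 0.38). When the 2 vehicle groups were fitted alone, 17 of 54 genes were called, all higher, where 5.90% of all genes were called higher.

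The fifth comparison is TRB against EV cells with T3, which shares libraries with the first and the second. With 11 libraries 38 of 55 genes were lower in TRB cells by edgeR, where 7.90% of all genes were, and 4 of 54 with 12, where 2.55% were. The 4 were HIST1H1B, HIST1H1C, HIST1H1D and HIST1H4H. Medians were -0.84 and -1.33. HIST1H1B stood at 316, 287 and 373 CPM in EV cells with T3 against 143, 37.1 and 134 CPM in TRB cells with T3, a log2 difference of -1.17 (SE 0.12, edgeR adjusted p = 2.5e-05) with 11 libraries. HIST1H2BJ at -1.17 (SE 0.20) and HIST1H3J at -1.17 (SE 0.25) followed it. Leaving the first or the third T3-treated EV library out of the 12 gave a count of 0, with 17 and 9 genes respectively at an unadjusted p under 0.05 in edgeR. Both fits kept the second T3-treated TRB library. In them 2.79% and 3.06% of all genes were called in either direction, and 17.3% and 15.4% had such a p.

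The share of alignments to several places moved with the histone share of a library. Within EV with vehicle, EV with T3 and TRB with vehicle, the 3 libraries had the same order in both. In EV with vehicle, shares of 66.3%, 33.1% and 37.9% went with histone shares of 0.521%, 0.422% and 0.489% of counts within genes. In EV with T3, 77.7%, 69.6% and 92.0% went with 0.552%, 0.443% and 0.690%. In TRB with vehicle, 66.9%, 43.7% and 46.4% went with 0.688%, 0.528% and 0.630%. In TRB with T3, 58.9%, 19.0% and 66.6% went with 0.308%, 0.0398% and 0.296%. At nearly the same share of such alignments, the first TRB library with vehicle (66.9%) held 0.688% and the third T3-treated TRB library (66.6%) held 0.296%. With this share as a covariate (chosen after seeing the data), 44 genes fell and 1 rose with T3 in TRB cells with 12 libraries, and 50 fell and none rose with 11. In the same fits 15.3% and 17.0% of all genes were called lower. The interaction was then called in 0 of 54 genes with 12 libraries in edgeR (4 at an unadjusted p under 0.05) and in 27 of 55 with 11, where 0.741% and 4.05% of all genes were called lower.

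**Figure D4:**
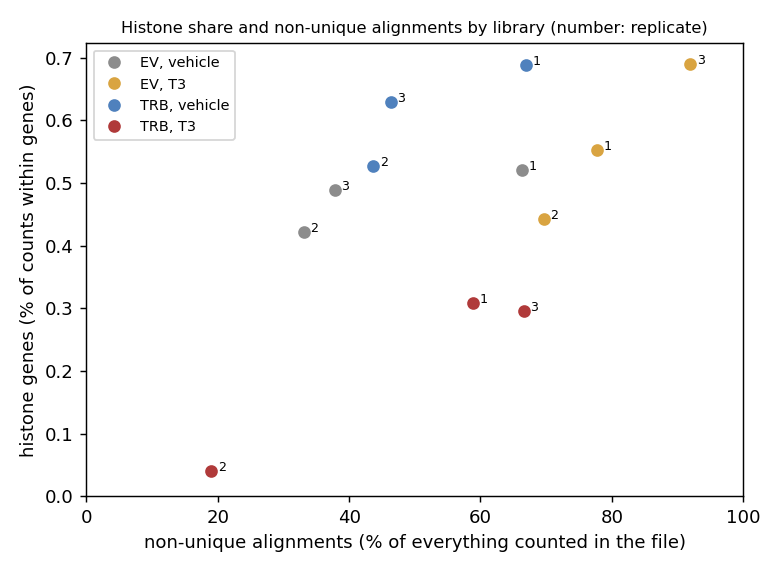
Histone genes as a percentage of counts within genes (vertical axis) against non-unique alignments as a percentage of everything counted in the file (horizontal axis), 1 numbered point per library. At 66.6% the third T3-treated TRB library lies at 0.296%, while the first libraries of both vehicle groups, at 66.3% and 66.9%, lie at 0.521% and 0.688%.

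Composition within the family shifted in the second T3-treated TRB library as well. H1 genes made up 32.6% of its histone counts against 19.0% and 19.1% in the other 2 of its group, and H3 genes made up 6.77% against 13.4% and 13.7%. In the other 11 libraries the H1 share ran from 19.0% to 23.4%.

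Genes that make, process or deposit histone mRNA and protein were taken from lists, to set the family beside its known partners. For T3 in TRB cells the fit with 11 libraries called 15.2% of all genes lower and 18.1% higher. Of 20 genes for histone gene transcription and mRNA processing, 2 fell and 1 rose with T3 in TRB cells with 11 libraries (median 0.09). They were LSM11, a U7 small nuclear RNP protein, at -0.72, ZNF473, a zinc finger protein of the same RNP, at -0.51, and ZCCHC6, a uridylyltransferase that acts on histone mRNA, at 0.59. LSM11 also fell with T3 in EV cells with 11 libraries, at -0.66 (SE 0.14, edgeR adjusted p = 0.016). ZNF473 stood at 49.0, 44.2 and 45.2 CPM with vehicle and 33.4, 29.5 and 28.98 CPM with T3 in TRB cells, and passed with 12 libraries too, at -0.59 (SE 0.15, edgeR adjusted p = 0.025). ZCCHC6 passed with 12 libraries as well, at 1.21. SLBP did not pass in any comparison: in TRB cells it stood at 64.3, 83.3 and 74.0 CPM with vehicle and 66.4, 107 and 65.95 CPM with T3, groups that overlapped (log2 change of -0.11, edgeR adjusted p = 0.59, 11 libraries). NPAT did not pass either, at 0.15 (edgeR adjusted p = 0.67), and its value in the second T3-treated TRB library, 245 CPM, was the highest of the 12.

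The genes listed as replication-independent histone variants are mostly also expressed outside S phase. Among 10 tested variants, 2 fell with T3 in TRB cells with 11 libraries, where 15.2% of all genes were called lower. None of the 10 passed with 12 (1 at an unadjusted p under 0.05 in edgeR). H2AFZ (H2A.Z) changed by -0.54 (SE 0.14) and H3F3B (H3.3) by -0.39 (SE 0.10), with a list median of -0.18. Of 20 histone chaperones and carriers, 3 fell and 1 rose with 11 libraries, where 15.2% and 18.1% of all genes did so. The median of the 20 was -0.09. IPO4, an importer of H3 and H4, changed by -0.94 (SE 0.31), RBBP7, a subunit of histone-binding complexes, by -0.35, SSRP1, a subunit of the FACT complex, by -0.34 (SE 0.09), and UBN1, of the HIRA complex, by 0.47. SSRP1 and IPO4 passed with 12 libraries too. SSRP1 was nearly equal in the 9 libraries of the other groups, between 426 and 465 CPM, and stood at 330, 316 and 340 CPM in TRB cells with T3.

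Of 32 genes of the G1/S transition and DNA synthesis, 4 fell and 2 rose with T3 in TRB cells with 11 libraries. Of all genes 15.2% fell and 18.1% rose in the same fit. The median of the 32 was -0.04. With 12 libraries none passed and 6 had an unadjusted p under 0.05 in edgeR. TYMS, which makes thymidylate, changed by -0.57 (SE 0.11), PRIM1, the primase subunit, by -0.52, and the replicative helicase subunits MCM3 and MCM6 by -0.31 and -0.30. CCNE1, the cyclin of the G1/S transition, changed by 0.76 (SE 0.11), and the flap endonuclease gene FEN1 by 0.37. CCNE1 at 0.42 and FEN1 at 0.48 also rose with T3 in EV cells with 11 libraries, together with MCM5 at 0.50 and GINS4 at 0.51. For T3 in EV cells 7.33% of all genes were called in either direction with 11 libraries. For TRB against EV cells with T3, 7 of 32 were lower with 11 libraries, MCM3 by -0.59, TYMS by -0.52 and MCM6 by -0.50 among them, and MCM3 alone with 12. Of all genes 7.90% and 2.55% were called lower in these 2 fits. The interaction passed with 11 libraries for TYMS at -0.68, MCM3 at -0.60, ZNF473 at -0.51 and SSRP1 at -0.39, where 6.68% of all genes were called lower. The medians of these 4 lists lay between -0.18 and 0.09 with T3 in TRB cells, where that of the replication-dependent genes was -0.94.

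As a description, the genes whose log2 CPM over the 12 libraries was most correlated with the log2 sum of the histone genes, among 10134 genes, were ETHE1 (Pearson's r of 0.996), RPL29, CSTB, FAM160A2 and PHF19. With 11 libraries they were RPL37A (0.983), ETHE1, IGFBP4, TNPO2 and CAD, so ETHE1 alone was in both sets. The points are the same libraries and share their depth and GC trend, and none of these genes belongs to the 4 lists.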

How the data were processed

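RNA was sequenced from 12 libraries of SW1736 cells. The deposited files hold raw counts per gene symbol, with no normalization by the authors in these files. Per the submitters' processing notes, the tools were CASAVA 1.7, STAR 2.7, HTSeq 0.10 and DESeq2, with the build hg38; the annotation and strand setting are not given in the sources used here. The 5 closing lines of each file (no feature, ambiguous, too low quality, not aligned, not unique) were left out of library sizes. Non-unique alignments were 19.0% to 92.0% of each file, no-feature reads 2.14% to 24.4% and ambiguous reads 0.258% to 1.81%.

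Groups came from the sample titles. Genes were filtered with filterByExpr (minimum count 10, total 15), scaled by TMM and tested in edgeR 4.0.16 (R 4.3.3) with quasi-likelihood tests on group means over all 4 groups, prior count 0.125, with Benjamini-Hochberg adjustment over all tested genes. Standard errors were computed from the F statistics. CPM values use TMM-scaled library sizes. DESeq2 1.42.0, other scalings and filters, GC offsets and the replicate number as a block were alternatives. The fit was tested on simulated data. Files and labels gave no sequencing batch. The members and lists were chosen with earlier results of these data known. Named genes are the 12 members with the highest mean CPM, up to 6 called members per direction and comparison, up to 3 called genes per direction and list, SLBP, NPAT, THRB, KLF9 and the 5 most correlated genes; others are named where a count of not more than 10 is spelled out or a class needs an example.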

Additional observations from a re-analysis of the deposited data

Results flagged for a closer look

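HIST1H1D was picked out because its T3 response differed between TRB and EV cells by a test of the difference itself with all 12 libraries, at -1.78 on the log2 scale (edgeR, adjusted p = 0.038). Without the second T3-treated TRB library the same test picked out 43 of 55 histone genes, all with the more negative response in TRB cells. The groups hold 3 libraries, too few to look for single outlying values within them.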

How the results depend on the processing

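With T3 in TRB cells, 7 histone genes were called with 12 libraries. Shares in percent after each count are those of all genes called in the same fit. RLE or upper-quartile scaling gave 7 (14.8% and 15.1%), library totals 6 (15.1%), a minimum of 10 counts in every library 6 (15.7%) and members with 100 or more counts 7. DESeq2 called 22 (21 lower; 17.5%) and no count filter 16 (5.97%). The compared groups alone gave 0 (10 at an unadjusted p under 0.05 in edgeR; 4.52%) or 51 (50 of them lower, where 24.1% of all genes were called lower) without the second T3-treated TRB library. GC offsets gave 32 (35.7%) or 51 (54.9%) without that library, and the share of non-unique alignments as a covariate 45 (29.6%) or 50 (37.0%) without it. Leaving out 1 library gave 2 to 45, and the share of all genes ran from 8.48% to 33.3% over these fits. For TRB against EV with T3 the main count was 4. DESeq2 called 11 (12.2%), the compared groups alone 0 (7 unadjusted; 0.241%) or 23 (8.85%) without the second library, GC offsets 25 (20.2%) or 49 (39.9%), and the covariate 1 (5.81%) or 30 (19.2%). Leaving out 1 library gave 0 to 38 (from 2.79% to 19.7% over these fits). For the interaction the main count was 1. DESeq2 called 6 (6.34%), library totals 0 (15 unadjusted; 2.72%), no count filter 0 (36 unadjusted; 0.783%), GC offsets 15 (11.4%) or 50 (33.9%) and the covariate 0 (4 unadjusted; 2.48%) or 27 (10.3%). Leaving out 1 library gave 0 to 43 (from 0.918% to 15.2% over these fits). The count was 2 without the first T3-treated TRB library (2.38%) and 43 without the second (15.2%). In each of these 3 comparisons the highest count came without the second T3-treated TRB library. With T3 in EV cells, 1 gene was called with GC offsets and 11 libraries (17.7%), and leaving out any 1 library gave 0 (from 0.0674% to 7.33%). In vehicle, 17 were called with the compared groups alone (11.2%), and leaving out any 1 library gave 0 (from 0.00674% to 0.0742%). With GC offsets and 12 libraries the median of all 12130 genes was -0.14 for T3 in TRB cells, against 0.01 for 14431 genes without offsets. The histone median with these offsets was -1.29. The cause of these changes was not tested.

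The replicate numbers are not stated to pair libraries. Deviations of same-numbered libraries from their group means correlated between -0.21 and 0.76, above 0.1 in 12 of 18 pairs, and the own number correlated best in 21 of 36 combinations. With the replicate block, T3 in TRB cells gave 21 calls (50 without the second T3-treated TRB library, 39 with GC offsets), TRB against EV with T3 gave 8 (49 and 31), the interaction gave 4 (49 and 17) and T3 in EV cells gave 6 with 11 libraries. Of all genes, the block called 15.8% (35.2% and 35.2%), 7.40% (21.7% and 19.6%), 2.74% (22.1% and 10.6%) and 13.3%. Directions of named genes turned in 2 cases, neither past the threshold in either setting: HIST1H3E in TRB against EV with T3 to -0.0076 with the block and GC offsets, and HIST1H2BC in the interaction to 0.046 with the covariate and 12 libraries. The cause was not tested.

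Too few counts kept 7 genes out of the test even with 11 libraries. Among them HIST2H2AA4 and HIST2H4A have 3.1% and 3.8% of their sequence unique, and HIST1H1PS1 and HIST2H2BD 22.6% and 30.0%. How far depth, low expression or lost reads account for their low counts was not tested. Reads lost to near-identical copies limit HIST1H4K, and the overlap with HIST1H2BN may limit HIST1H2AK. Either can limit the other genes with little unique sequence.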
